A study of Mus musculus with 6 samples.

Results

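The 5 neutrophil-attracting CXC chemokine genes Cxcl1, Cxcl2, Cxcl3, Cxcl5 and Ppbp were examined among the 22442 genes of an RNA-seq table of mouse renal tubular epithelial cells (mTECs). They were selected by symbol, as the ELR-type members of the chemokine cluster on chromosome 5, after the difference between the groups had already been seen in these libraries for Cxcl1, Cxcl2 and Cxcl5. Because the genes were chosen by a readout of the same comparison, their differences are given as a description, without a test. The study asked what Stat3, a transcription factor activated by cytokines, controls in tubular cells during acute kidney injury. Poly(A) RNA of 6 libraries was sequenced, 3 labelled LPS and 3 labelled Stat3-silenced. All 6 were treated with lipopolysaccharide (LPS), a component of the bacterial outer membrane, at 20 μg/ml for 24 h. The first group was transfected beforehand with a negative control and the second with an RNA directed against Stat3. The study describes mTECs as an immortalised line and lists an shRNA, whereas by the labels the cells were sorted magnetically and received an siRNA. No library without LPS was analysed here, so the response to LPS itself was not measured.

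Expression is given as FPKM, the number of fragments scaled to gene length and library total. Library totals, inferred from the FPKM values, lay between 24084827 and 25422171 fragments. The targeted transcript did not separate the groups. Stat3 was at 34.6, 31.4 and 35.2 FPKM in the LPS-labelled libraries and at 30.8, 35.2 and 34.3 FPKM in the Stat3-silenced ones, a log2 fold change of -0.01 (SE 0.07, limma adjusted p = 0.944). The group names below are therefore those of the labels. The study reports knockdown of Stat3 in mTECs by real-time PCR and western blot, without tying those assays to these libraries. Markers of the epithelium were abundant, with Epcam at 307 ± 13.95 and 315 ± 13.3 FPKM and Krt8 at 1205 ± 43.6 and 1170.1 ± 4.55 FPKM (mean ± SD, n = 3). Markers of the mature proximal tubule were low. Slc34a1 was listed at 0 in every library, Lrp2 did not exceed 0.00869 FPKM, Cubn was at 0.951 ± 0.147 and 0.938 ± 0.0944 FPKM, and Aqp1 was at 4.33 ± 0.684 and 8.34 ± 1.31 FPKM.

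The ELR-type CXC chemokines are small secreted proteins named after a glutamate-leucine-arginine motif that precedes the first cysteines. They bind Cxcr2 and, for some of them, Cxcr1 on neutrophils and draw these cells from blood into tissue. In epithelial cells their genes are induced within hours by LPS, IL-1, TNF and IL-17, largely through NF-kB, and several of the transcripts are short-lived. Ppbp, the precursor of platelet basic protein, is best known from platelets and their precursors.

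The codons of the ELR-CXC motif are shown because the motif defines the family and sets the receptor that its members use. Each stretch is read on the plus strand of GRCm38 from the GENCODE M21 coding sequence, 5′ to 3′, with the 6 codons of the motif in capitals and 4 codons on either side. All 5 motifs lie in exon 2. They are at chr5:90891475-90891516 for Cxcl1, chr5:90904121-90904162 for Cxcl2, chr5:90786347-90786388 for Cxcl3, chr5:90759706-90759747 for Cxcl5 and chr5:90769064-90769105 for Ppbp.
Cxcl1: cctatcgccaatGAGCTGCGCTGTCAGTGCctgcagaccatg
Cxcl2: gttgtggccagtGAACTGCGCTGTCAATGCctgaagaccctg
Cxcl3: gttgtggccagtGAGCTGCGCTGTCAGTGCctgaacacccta
Cxcl5: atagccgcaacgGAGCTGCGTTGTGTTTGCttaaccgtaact
Ppbp: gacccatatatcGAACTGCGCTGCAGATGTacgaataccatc

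The motif begins at codon 30 in Cxcl1, 33 in Cxcl2 and Cxcl3, 50 in Cxcl5 and 49 in Ppbp. The coding sequences hold 96 codons before the stop in Cxcl1, 100 in Cxcl2 and Cxcl3, 132 in Cxcl5 and 113 in Ppbp. Over the full length of the aligned coding sequences, gaps included, Cxcl2 and Cxcl3 were 89.7% identical. Cxcl1 was 76.0% identical to Cxcl2 and 72.7% to Cxcl3. The identity of Cxcl5 and Ppbp to each other was 52.2%, and to the remaining genes it lay between 51.7% and 57.8%. Of the 270 stretches of 31 bases in the Cxcl2 coding sequence, 68 also occur in Cxcl3, while Cxcl1, Cxcl5 and Ppbp share none with any other gene. Fragments from those stretches could have been divided between Cxcl2 and Cxcl3, so the values of both are uncertain to that extent.

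Promoter windows are shown because transcription factors such as NF-kB and Stat3 act on regions of this kind. They reach from 250 bases before to 50 bases after the start of transcription and come from a RefSeq table of GRCm38.p6, which matched 4 of the 5 genes. The entry for Cxcl5 was missing. Matches to the NF-kB consensus and to the TATA box (TATAAA) are in capitals. The windows are chr5:90890995-90891294 for Cxcl1, chr5:90903649-90903948 for Cxcl2, chr5:90785851-90786150 for Cxcl3 and chr5:90768268-90768567 for Ppbp, all on the plus strand.
Cxcl1: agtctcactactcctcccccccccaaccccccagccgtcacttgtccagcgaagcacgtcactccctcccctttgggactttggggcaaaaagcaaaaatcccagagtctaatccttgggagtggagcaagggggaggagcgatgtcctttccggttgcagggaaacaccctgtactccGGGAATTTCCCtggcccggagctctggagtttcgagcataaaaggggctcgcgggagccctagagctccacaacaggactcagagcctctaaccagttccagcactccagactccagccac
Cxcl2: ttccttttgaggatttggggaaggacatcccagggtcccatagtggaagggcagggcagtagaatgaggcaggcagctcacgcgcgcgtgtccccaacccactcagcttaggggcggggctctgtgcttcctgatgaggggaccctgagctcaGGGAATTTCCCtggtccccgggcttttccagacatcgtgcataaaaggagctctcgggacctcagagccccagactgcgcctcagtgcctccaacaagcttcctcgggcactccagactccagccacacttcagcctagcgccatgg
Cxcl3: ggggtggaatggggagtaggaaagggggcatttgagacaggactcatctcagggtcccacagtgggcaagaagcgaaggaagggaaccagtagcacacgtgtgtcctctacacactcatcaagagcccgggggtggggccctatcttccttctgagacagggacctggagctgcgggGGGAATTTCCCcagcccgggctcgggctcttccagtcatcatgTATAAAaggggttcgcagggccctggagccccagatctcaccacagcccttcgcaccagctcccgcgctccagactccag
Ppbp: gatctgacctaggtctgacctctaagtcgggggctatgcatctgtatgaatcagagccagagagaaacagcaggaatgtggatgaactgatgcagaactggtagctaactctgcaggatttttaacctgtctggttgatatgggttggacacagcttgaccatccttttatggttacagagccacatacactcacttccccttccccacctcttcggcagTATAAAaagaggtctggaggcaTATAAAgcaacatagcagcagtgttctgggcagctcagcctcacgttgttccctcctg

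Cxcl1, Cxcl2 and Cxcl3 each held the same 11-base NF-kB element, GGGAATTTCCC, in which a match on either strand overlaps. On the plus strand it began 71 bases before the RefSeq start in Cxcl1, 97 in Cxcl2 and 73 in Cxcl3. GENCODE M21 places the start of Cxcl2 further upstream, at chr5:90903871, so its distance is shorter by that annotation. Ppbp held no NF-kB match but 2 TATA boxes, which began 30 and 8 bases before the start, and an AP-1 match (TGANTCA, the same site on both strands). Cxcl3 held a TATA box that began 30 bases before the start. No window held the STAT letters TTCNNNGAA or the C/EBP letters TTGCNNAA. Among 32851 promoter windows of the same length, searched on both strands, 8.46% held the NF-kB consensus, 13.6% the TATA box, 7.81% the AP-1 letters, 8.30% the STAT letters and 10.8% the C/EBP letters. These are matches of letters in a window and say nothing about binding.

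By FPKM on coding lengths, Cxcl1 and Cxcl5 were among the most abundant transcripts of these cells. Of the 5 chemokines, 4 were higher in the Stat3-silenced libraries. The difference grew in the order Cxcl1, Cxcl2, Cxcl5 and Ppbp. Cxcl3 was close to undetected in both groups. Of the 5 genes, 4 passed the filter on low values (a mean of 0.5 FPKM). All 4 were called higher, which means an adjusted p under 0.05 in limma, as were 1.57% of the 11723 genes tested. In the other direction 1.66% of genes were called. The groups did not overlap for these 4 genes, with the Stat3-silenced libraries above, as for 10.6% of the genes tested. Since the genes were chosen with this contrast known, nothing is read from these counts. In RNA from whole cultures, more cells that express a gene and more RNA of it per cell cannot be told apart.

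**Figure D1:**
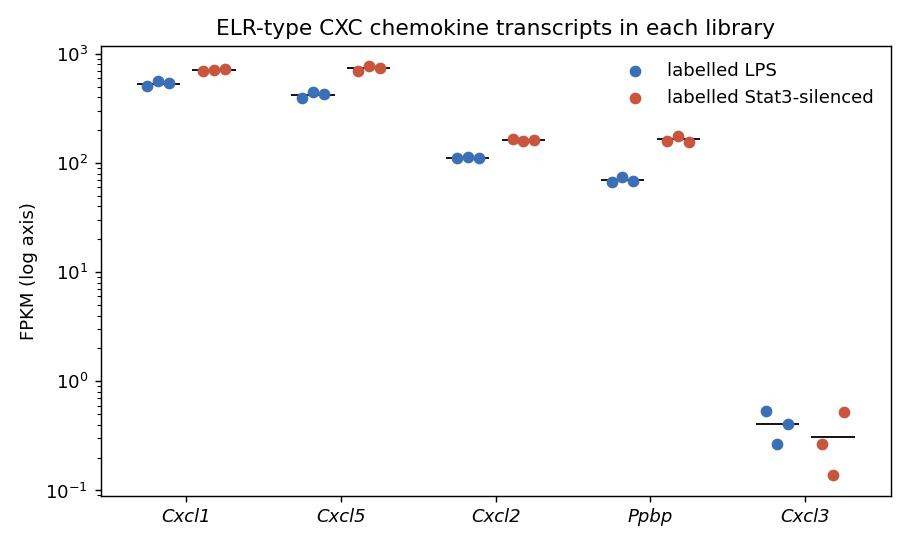
FPKM of each of the 5 chemokine genes by library. Points are single libraries (3 labelled LPS, 3 labelled Stat3-silenced) and horizontal bars the mean. The Stat3-silenced points lie above all LPS points for Cxcl1, Cxcl2, Cxcl5 and Ppbp, and the groups overlap for Cxcl3, with at most 0.534 FPKM.

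Ppbp (ENSMUSG00000029372, chr5:90768518-90770063) differed most between the groups. It was at 66.5, 74.8 and 69.0 FPKM in the LPS-labelled libraries and at 161, 176 and 156 FPKM in the Stat3-silenced ones. The lowest Stat3-silenced library was 81.5 FPKM above the highest LPS library. The means were 70.1 ± 4.25 and 165 ± 10.5 FPKM (SD, n = 3), a ratio of 2.35 and a log2 fold change of 1.23 (SE 0.06). The values rest on 563 to 633 fragments per LPS library and 1351 to 1444 per Stat3-silenced library.

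Cxcl5 (ENSMUSG00000029371, chr5:90759360-90761624), which epithelial cells of several organs produce, lies 6.89 kb from Ppbp and came next. It was at 395, 444 and 426 FPKM in the LPS-labelled libraries and at 699.9, 769 and 737 FPKM in the Stat3-silenced ones. The lowest Stat3-silenced library was well above the highest LPS library. The means were 422 ± 25.0 and 735 ± 34.4 FPKM (SD, n = 3), a ratio of 1.74 and a log2 fold change of 0.80 (SE 0.05), from at least 3901 fragments per library.

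Cxcl2 (ENSMUSG00000058427, chr5:90903871-90905938), known as macrophage inflammatory protein 2, was the most even of the chemokines among replicates. It was at 111, 113 and 110.5 FPKM in the LPS-labelled libraries and at 164, 159.5 and 164 FPKM in the Stat3-silenced ones. The 2 groups formed narrow and separate bands. The coefficients of variation, 1.53% and 1.71%, were below the 3.46% and 2.86% that counting of its fragments alone would give. The means were 112 ± 1.71 and 163 ± 2.78 FPKM (SD, n = 3), a ratio of 1.46 and a log2 fold change of 0.54 (SE 0.03).

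Cxcl1 (ENSMUSG00000029380, chr5:90891241-90893115), the keratinocyte-derived chemokine often measured as a marker of kidney inflammation, had the highest level in the LPS-labelled libraries and the smallest difference of the 4. It was at 503, 561 and 536 FPKM in the LPS-labelled libraries and at 698, 709.6 and 727 FPKM in the Stat3-silenced ones. Again the groups did not overlap. The means were 533 ± 28.8 and 712 ± 14.4 FPKM (SD, n = 3), a ratio of 1.33 and a log2 fold change of 0.42 (SE 0.04). By mean FPKM, Cxcl1 ranked 144, Cxcl5 157, Cxcl2 999 and Ppbp 1194 in the table. These ranks rest on coding lengths, and ranks by the length of the spliced transcript were not computed.

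Cxcl3 (ENSMUSG00000029379, chr5:90786103-90789600) was at 0.534, 0.267 and 0.408 FPKM in the LPS-labelled libraries and at 0.266, 0.138 and 0.523 FPKM in the Stat3-silenced ones. The groups overlap. These values stand for 4, 2 and 3 fragments against 2, 1 and 4. Of the 16 fragments in all, 7 came from the Stat3-silenced libraries (43.8%, exact Clopper-Pearson 95% interval 19.8 to 70.1%, which covers counting error only). A difference in Cxcl3 was not detectable at this depth. The gene lies 101.64 kb from Cxcl1 and 16.039 kb from Ppbp and shares the NF-kB element with Cxcl1 and Cxcl2.

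The make-up of the chemokine pool differed along with its size. The summed level of the 5 genes was 1137 ± 59.1 FPKM in the LPS-labelled libraries and 1775 ± 46.1 FPKM in the Stat3-silenced ones (SD, n = 3), a ratio of 1.56. The share of Cxcl1 in that sum was 46.9 ± 0.109% and 40.1 ± 0.875%, whereas that of Cxcl5 was 37.1 ± 0.321% and 41.4 ± 0.892%. Ppbp made up 6.16 ± 0.116% and 9.27 ± 0.486%. The share of Cxcl2, 9.82 ± 0.407% and 9.18 ± 0.373%, overlapped between the groups. Thus the parts of Cxcl5 and Ppbp were larger and that of Cxcl1 smaller in the Stat3-silenced libraries. The sum and the shares rest on coding lengths, and those by the length of the spliced transcript were not computed.

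The order of the levels by FPKM differed too. In the LPS libraries it ran Cxcl1, Cxcl5, Cxcl2, Ppbp and Cxcl3, and no neighbours in that order overlapped. In the Stat3-silenced libraries Cxcl1 and Cxcl5 overlapped, as did Cxcl2 and Ppbp. The level of Cxcl5 relative to Cxcl1 was 0.785, 0.793 and 0.794 in the LPS libraries and 1.00, 1.08 and 1.01 in the Stat3-silenced libraries. Ppbp relative to Cxcl5 was 0.169, 0.168 and 0.162 in the first group and 0.230, 0.229 and 0.212 in the second. The FPKM values were fitted by lengths of 289 to 397 bases, just above the coding lengths. Whether fragments over untranslated regions were counted is not given in the sources used here. Per kilobase of the spliced transcript, a scale added after the data were examined, Cxcl5 was at 0.657 of Cxcl1 in the LPS libraries and 0.859 in the Stat3-silenced libraries, so Cxcl1 stayed the higher of the pair in both. Ppbp was at 22.0 ± 1.33 and 51.6 ± 3.30 on that scale, and Cxcl2 at 30.5 ± 0.467 and 44.5 ± 0.759 by the length of its shorter transcript or 18.2 ± 0.279 and 26.5 ± 0.453 by that of its longer one. The order of Cxcl2 and Ppbp and their overlap thus depend on the length used. The fold changes of single genes between groups do not depend on the length used.

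**Figure D2:**
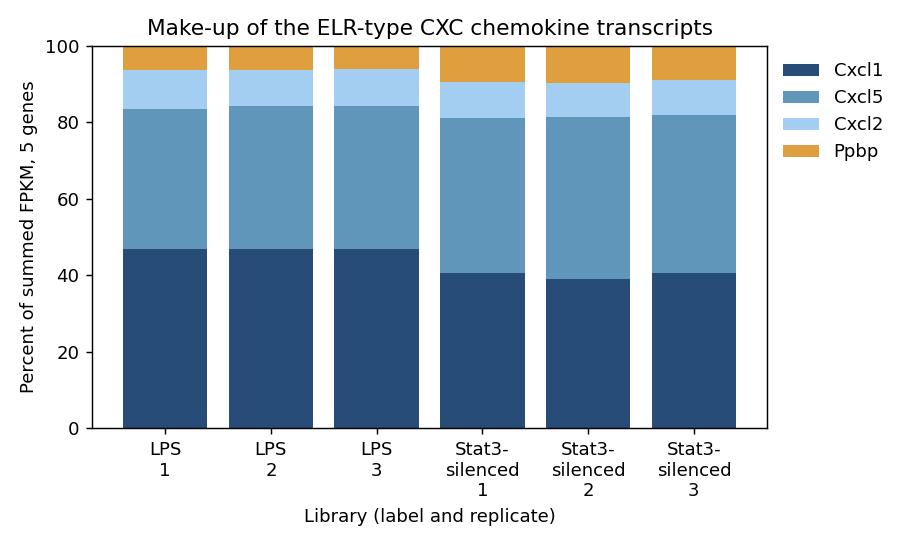
Share of each chemokine in the summed FPKM of the 5 genes, on coding lengths, in percent, for every library. The share of Cxcl1 was 46.9% on average in the LPS-labelled libraries and 40.1% in the Stat3-silenced ones, while Cxcl5 and Ppbp took larger shares. Cxcl3, at 0.0359% and 0.0174%, is too small to be drawn.

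The 5 chemokine genes span 146.579 kb of chromosome 5, and the question whether neighbouring genes differed alongside them was examined within 1 Mb. Of 15 other genes there, 12 passed the filter, 1 was called higher and 1 lower (limma, adjusted over all genes). The growth factor gene Areg, an EGF receptor ligand that begins 233.66 kb beyond Cxcl2, was lower. It was at 41.3, 47.5 and 46.0 FPKM in the LPS-labelled libraries and at 30.1, 28.9 and 27.2 FPKM in the Stat3-silenced ones, with a log2 fold change of -0.64 (SE 0.07, adjusted p = 0.00157). Its groups did not overlap, in the opposite direction to the chemokines.

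Ereg and Btc, which encode related EGF receptor ligands, had log2 fold changes of -0.26 (adjusted p = 0.0962) and -0.41 (adjusted p = 0.146) in limma and did not pass the test. Parm1, at the far side of the window, was called higher, from 1.81, 1.99 and 1.15 FPKM to 4.28, 3.55 and 3.05 FPKM (log2 fold change 1.11, limma adjusted p = 0.0434). That call was lost in 8 of 16 alternative settings, with adjusted p up to 0.171, among them the omission of either 1 of 2 LPS libraries (replicates 1 and 3) or of any 1 Stat3-silenced library. Pf4, the platelet chemokine gene between Ppbp and Cxcl3, was at 2.27, 0.758 and 0.129 FPKM against 2.52, 1.96 and 1.73 FPKM, so its groups overlapped (log2 fold change 1.47, SE 0.72, limma adjusted p = 0.336). Cxcl15, another ELR-type chemokine gene nearby, did not exceed 0.0815 FPKM. Among the remaining neighbours tested, Mthfd2l, Rassf6, Ankrd17, Cox18, Alb, Afp and Afm had log2 fold changes from -0.74 to 0.80 and none passed the test.

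**Figure D3:**
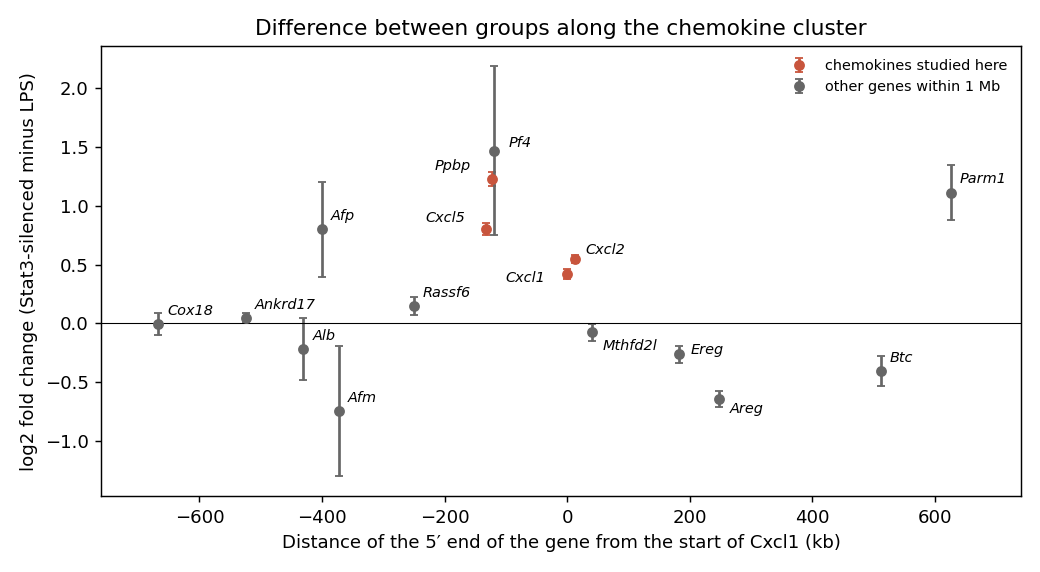
log2 fold change (Stat3-silenced minus LPS, with SE) of the chemokines and of other genes within 1 Mb that passed the filter, against the distance of each gene's 5′ end from the start of Cxcl1 in kb. The 4 chemokines lie above 0, Areg lies below it at -0.64, and the median of the 12 neighbours was -0.04.

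The receptors of these chemokines were almost absent from the cells. Cxcr1 was listed at 0 in every library, and Cxcr2 lay between 0.0371 and 0.298 FPKM. The scavenging receptors Ackr1 and Ackr2 were at 0 in most libraries, and no gene of this group passed the filter.

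The cytokines and receptors that induce the chemokines in epithelium were listed next. Of 24 genes, 22 were in the table and 18 were tested, and limma called 0 of them, with 2 at an unadjusted p under 0.05 (1 higher, 1 lower). Over all genes tested, 8.65% were higher and 8.91% lower at that unadjusted p. In voom on the recovered fragments 1 was called. The median log2 fold change was -0.05, against -0.01 over all genes tested. Cd14, which hands LPS to its receptor, was at 64.0 ± 1.36 FPKM in the LPS-labelled libraries and 73.3 ± 2.54 in the Stat3-silenced ones (SD, n = 3), and narrowly missed the threshold in limma (log2 fold change 0.19). The LPS receptor Tlr4 was at 17.5 ± 0.934 and 18.3 ± 0.786 FPKM (log2 fold change 0.06, limma adjusted p = 0.718). Il17rc, a subunit of the IL-17 receptor, was at 65.2 ± 3.65 and 68.0 ± 1.03 FPKM (log2 fold change 0.06). Tnf itself stayed below the filter.

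A list of 34 genes held NF-kB subunits and inhibitors along with genes of the LPS response through NF-kB. Of these, 31 were tested, 3 were called higher and 0 lower. At an unadjusted p under 0.05 in limma, 11 were higher and 3 lower, beside 8.65% and 8.91% of all genes tested. The median log2 fold change was 0.06. Ccl20, which attracts lymphocytes and dendritic cells through Ccr6, differed most, within the range of the chemokines of the cluster. It was at 58.8, 67.2 and 60.5 FPKM in the LPS-labelled libraries and at 134, 123 and 126 FPKM in the Stat3-silenced ones, without overlap (log2 fold change 1.04, SE 0.06, limma adjusted p = 5.42e-05). Lcn2, the iron-scavenging protein also known as neutrophil gelatinase-associated lipocalin, rose from 719 ± 19.0 to 999 ± 11.7 FPKM (SD, n = 3), a log2 fold change of 0.47 (limma adjusted p = 1.55e-04).

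Csf1, the macrophage growth factor, was higher as well, with a log2 fold change of 0.24 (limma adjusted p = 0.00994). Without LPS replicate 3 or Stat3-silenced replicate 3 its call was lost, with limma adjusted p up to 0.0622. Ier3, an early response gene at 587 ± 13.7 and 631 ± 13.7 FPKM, did not pass the test (log2 fold change 0.10, limma adjusted p = 0.156). Most genes of this list were therefore not called. The 3 called were higher, as were Cxcl1, Cxcl2, Cxcl5 and Ppbp, whereas voom called 5 higher and 2 lower.

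Of 17 genes that control the decay and stability of short-lived transcripts, all 17 were tested and limma called 0, with 1 higher and 2 lower at an unadjusted p under 0.05, beside 8.65% and 8.91% of all genes tested. In voom 0 were called as well. The median log2 fold change was 0.03. Zfp36, which binds AU-rich elements and speeds decay, was at 21.1 ± 1.19 and 22.4 ± 1.71 FPKM (SD, n = 3), and its groups overlapped. The 2 genes at the highest level, Srsf1 and Zfp36l1, had log2 fold changes of 0.09 and 0.10 and did not pass the test.

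Genes that trim chemokines or present them on cell-surface heparan sulphate numbered 18, of which 11 were tested. At an unadjusted p under 0.05 in limma, 1 was higher and 1 lower, beside 8.65% and 8.91% of all genes tested. The median log2 fold change was -0.04, and 1 gene was called, Ndst1, an enzyme that sulphates heparan chains. It rose from 44.5 ± 4.09 to 56.3 ± 2.48 FPKM (SD, n = 3), a log2 fold change of 0.34 (limma adjusted p = 0.0401), but the call was lost in 7 of 16 alternative settings, with adjusted p up to 0.150, including the omission of any 1 Stat3-silenced library or of LPS replicate 2 or 3. The syndecans Sdc4 and Sdc1, which carry such chains, were the most abundant, with log2 fold changes of -0.05 and -0.20 (limma adjusted p = 0.590 and 0.0608).

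A list of factors for the production, survival and entry of neutrophils numbered 12, of which 11 were in the table and 9 were tested. The list also held macrophage factors, and the 1 gene called was such a factor, Csf1 (also counted above). At an unadjusted p under 0.05 in limma, 4 were higher and 1 lower, beside 8.65% and 8.91% of all genes tested. The median log2 fold change was 0.01. Csf3, the granulocyte growth factor, was at 106, 96.0 and 106 FPKM in the LPS-labelled libraries and at 115, 116 and 111 FPKM in the Stat3-silenced ones. Its groups did not overlap, but it did not pass the test (log2 fold change 0.15, limma adjusted p = 0.144). Anxa1, which limits neutrophil entry, was the most abundant of the list at 1482 ± 84.3 and 1605 ± 60.5 FPKM, and its groups overlapped.

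**Figure D4:**
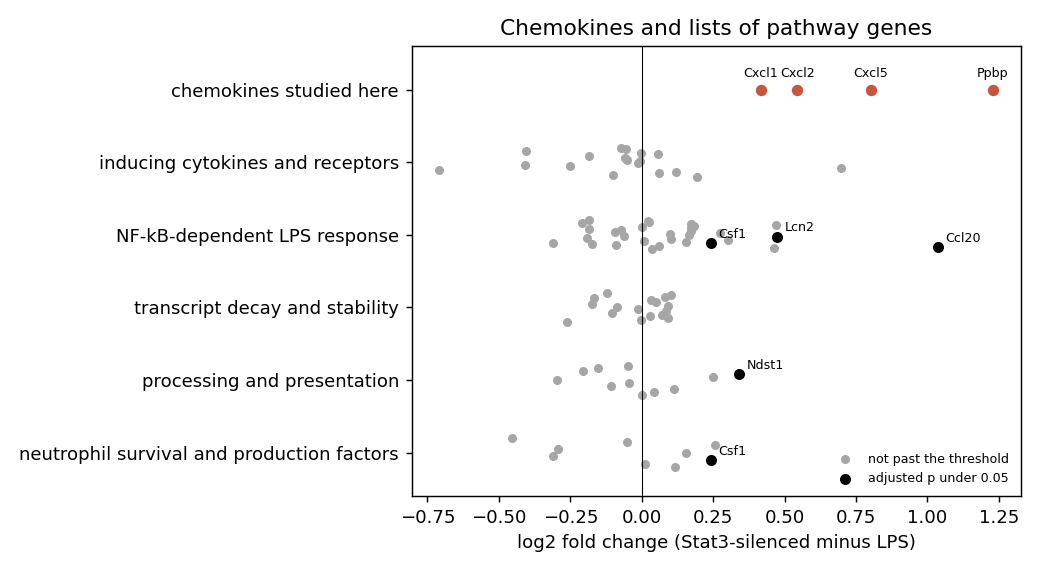
log2 fold changes (Stat3-silenced minus LPS) of single genes in the chemokine family and in each pathway list, for genes that passed the filter. Most listed genes lie near 0, while Ccl20 at 1.04 lies in the range of the chemokines.

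Across the 6 libraries, the genes whose profile was most like the mean profile of the 4 chemokines that passed the filter were Hspa4l, Plekhs1, Scin, Muc4 and Filip1l. Their Pearson r lay between 0.994 and 0.996 among 11719 genes ranked. Since the chemokines separate the groups, these values rest mostly on the difference between groups and are a description only. Hspa4l, a member of the heat shock protein family, was at 69.1, 72.9 and 72.3 FPKM in the LPS-labelled libraries and at 94.9, 95.2 and 92.5 FPKM in the Stat3-silenced ones. Scin, which severs actin filaments, had a log2 fold change of 0.52, and Plekhs1, Muc4 and Filip1l had 0.39, 0.40 and 0.33. Muc4, which did not exceed 2.48 FPKM, was not called (limma adjusted p = 0.236).

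Markers of blood cells that also make or answer to these chemokines were low. Of 9 neutrophil markers 2 passed the filter, Mpo and Camp were listed at 0 in every library, and the summed level was 28.4 to 32.9 FPKM in the LPS-labelled libraries and 26.3 to 29.1 in the Stat3-silenced ones, most of it from Ly6g. Of 8 markers of platelets and megakaryocytes 2 passed the filter, Gp6 was at 0 throughout, and the sums were 1.74 to 3.81 and 3.10 to 3.52 FPKM. In neither list did limma call a gene, and 0 genes of either had an unadjusted p under 0.05. Of the platelet markers, Itga2b was at 1.53 ± 0.0706 and 1.22 ± 0.267 FPKM (SD, n = 3). Pf4 did not exceed 2.52 FPKM, and the rest did not exceed 0.0739 FPKM. Which cells made the Ppbp transcript was not tested.

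Some other markers differed between the groups. Of 9 macrophage and leukocyte markers 8 passed the filter, and their sum was 92.9 to 96.8 FPKM in the LPS-labelled libraries and 97.6 to 113 in the Stat3-silenced ones. Csf1r, the receptor of Csf1, was the one called, at 24.4 ± 2.74 and 33.3 ± 0.583 FPKM (SD, n = 3). It had the largest difference in mean FPKM of the 9. Of the 8 tested, 4 had positive and 4 negative log2 fold changes. At an unadjusted p under 0.05 in limma, 1 was higher and 1 lower, beside 8.65% and 8.91% of all genes tested. Cd74 was at 28.7 ± 2.91 and 31.9 ± 1.54 FPKM, and Cd68 at 13.7 ± 1.20 and 11.1 ± 1.34 FPKM. Of 14 tubule and epithelium markers 12 passed the filter, with sums of 4946 to 5081 and 4810.4 to 4915 FPKM. Here 4 were higher (Pax2, Pax8, Aqp1 and Cdh16) and Krt18 was lower. Pax2, a transcription factor of the renal lineage, was at 34.0 ± 1.45 and 51.7 ± 2.68 FPKM. The sums of 5 endothelial markers (2.67 to 5.21 and 3.12 to 5.32 FPKM) and of 6 fibroblast markers (18.8 to 23.4 and 11.8 to 25.2 FPKM) overlapped between the groups, and limma called 0 genes in either list, with 0 at an unadjusted p under 0.05. The part of the marker differences in the levels of the chemokines was not tested.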

How the data were processed

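Poly(A) RNA of 3 mTEC libraries labelled LPS and 3 labelled Stat3-silenced was analysed. The authors deposited FPKM values per gene and library, without pooling. The submitters' processing notes name HISAT2 2.0, StringTie 1.3.0 and Bowtie 0.12.2 and the builds mm8 and GRCh38.p13, without roles. The steps applied to each are not given in the sources used here. Symbols were taken from GENCODE M21 for 22399 of 22442 identifiers. Library totals were inferred from the FPKM values themselves, and a few bases were added to the coding length of a gene where needed. FPKM multiplied by that length and total gave whole fragments (within 1e-04) for 97.7% of 16837 genes above 0. As lengths and totals were fitted to these values, that share is no independent check. The depth was taken from these fragments.

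Differences were tested with limma 3.58.1 in R 4.3.3 (eBayes with trend) on log2(FPKM + 0.1). Genes under a mean FPKM of 0.5 were left out. No covariate was used, and p-values had Benjamini-Hochberg adjustment over 11723 genes at a threshold of 0.05. Fold changes on this scale understate the change of genes with low values. Genes below the filter took their fold change from a fit on all genes above 0, with no call. An exact two-sided permutation test of 3 against 3 cannot go below 0.1, so none was used. The labels do not state how the replicates were cultured, so p-values measure the spread between these libraries, which may be technical.

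The genes, the lists, the markers and the tests were chosen with earlier results of these data known. The genes named are the 5 chemokines, Stat3, the called genes (at most 5) and the 2 at the highest level in each list, the neighbours that passed the filter, the 5 genes of most similar profile and the markers that define each list. Tlr4, Tnf, Zfp36, Cxcl15, the remaining receptors and single cell type markers were named beyond this, after their values were seen. Alternatives were other pseudocounts and filters, quantile normalization, centring, eBayes without trend, a replicate block, voom on the recovered fragments and the omission of each library. Levels per kilobase of spliced transcript were added after the data were examined. Markers not named enter only the counts and sums of their lists. The fit was tested on simulated data. Sequences were read with Python 3.11.15 and identities computed with Biopython 1.88.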

Additional observations from a re-analysis of the deposited data

How the results depend on the processing

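The 4 chemokines that passed the filter were called higher in all 16 alternative settings, with log2 fold changes of 0.37 to 0.45 for Cxcl1, 0.52 to 0.56 for Cxcl2, 0.76 to 0.84 for Cxcl5 and 1.18 to 1.28 for Ppbp. As their choice used this contrast, that is no independent support. Cxcl3, with 16 fragments, ranged from -0.73 to -0.04 and was limited by depth. The calls of Areg, Ccl20 and Lcn2 held in all 16 settings, that of Csf1 in 13, of Ndst1 in 9 and of Parm1 in 8. Across the table, 379 genes were called, 140 with eBayes without trend, 213 with the replicate block, 582 in voom, and 158 to 356 with 1 library left out, fewest without LPS replicate 3 and 178, 192 and 168 without Stat3-silenced replicates 1, 2 and 3. Same-numbered libraries did not deviate together (correlations of -0.02, -0.00 and -0.04). Correlations of this kind cannot settle whether the libraries were paired in culture. Of the calls of these 6 genes, the block ended that of Parm1 (adjusted p = 0.0510 in limma). Among inducing cytokines and receptors, 1 gene was called with a pseudocount of 1, a filter of 1 FPKM, centred medians or voom, against 0. In the NF-kB list 7 were called in voom (5 higher, 2 lower) and 2 to 5 with 1 library left out, of which 1 was lower without LPS replicate 1 and without Stat3-silenced replicate 2. In the presentation list 0 were called without a filter or without trend, 2 with quantile normalization or voom, and 0 to 1 with 1 library left out. In the neutrophil survival list 0 were called without trend and 0 to 2 with 1 library left out. Among the neighbours 1 was called without a filter, without trend and with the replicate block, and 1 to 2 with 1 library left out. The cause of these changes was not tested. Scaling moved the median of all genes by at most 0.0059 (log2).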
